A study of Mus musculus with 8 samples.

Results

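The 10 genes described here encode matricellular and structural glycoproteins of the extracellular matrix: Fn1, Sparc, Spp1, Postn, Tnc, Thbs1, Thbs2, Nid1, Fbn1 and Ccn2. They were chosen by name, with earlier results of these data known. Each matched 1 row of both expression tables, which list 52338 genes for the ginsenoside Re experiment and 52139 for the ginseng berries concentrate (GBC) experiment. All 8 RNA sequencing libraries carry the label of wild-type C2C12, a mouse myoblast cell line whose cells fuse into myotubes when serum is withdrawn. One table holds 3 libraries of cells given ginsenoside Re, a saponin of ginseng, and 3 of cells given DMSO, a solvent used as the control. The other table holds 1 GBC library and 1 DMSO library of its own, so the experiments share no control. Doses, treatment times and whether the 3 libraries of a group came from separate cultures were not given in the labels, so p-values measure only the spread between these libraries, which may be technical.

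Fibronectin, nidogen and fibrillin build the matrix: fibronectin forms fibrils that cells grip through integrins, nidogen links laminin to collagen networks in basement membranes, and fibrillin forms the microfibrils that carry elastin and hold latent TGF-beta. Matricellular proteins (SPARC, osteopontin, periostin, tenascin-C, the thrombospondins and CCN2) contribute little to the scaffold. They bind matrix, growth factors and cell surface receptors and tune adhesion, and many are made during growth and repair, also in regenerating muscle. CCN2 and thrombospondin-1 are known targets of TGF-beta and of the YAP and TAZ coactivators.

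Several defining myoblast markers were present in the Re table and listed at 0 in the pair. In every library of the Re table, 6 of 8 myoblast markers were at 1 TPM or more (transcripts per 1000000, a level per transcript length), with a summed level of 225 to 252 TPM. In the pair 1 of the 8 was, Des (1.92 TPM in DMSO, 1.59 TPM in GBC), the summed level was 2.11 and 1.86 TPM, and Myod1, Myf5, Cdh15, Pax7 and Msc were listed at 0 in both libraries. Of these, Myod1, Myf5 and Cdh15 were at 9.95 to 34.2 TPM in the Re table, while Pax7 and Msc were at or under 0.13 TPM there too, so those do not separate the tables. Of 11 fibroblast and mesenchymal markers, 8 were at 1 TPM or more in the pair, with a sum of 164 TPM for DMSO and 255 TPM for GBC, and 7 in each Re-table library, summing to 255 to 359 TPM. Their make-up differed, and not in 1 direction. Thy1 was at 23.8 and 22.1 TPM in the pair and between 0 and 0.08 TPM in the Re table, and Ly6a and Prrx1 were higher in the pair too, at 51.5 and 31.8 TPM in its DMSO library against means of 13.2 and 17.4 TPM in DMSO of the Re table. Col3a1, a chain of type III collagen, was at 19.8 against 219 TPM, Pdgfrb at 1.78 against 14.4 TPM, Col1a1 at 10.9 against 16.5 TPM and Twist2 at 17.9 against 19.9 TPM, and Lum was at or under 0.04 TPM in all 8 libraries. Of 9 myotube markers at most 2 reached 1 TPM in any library. The summed levels of 5 markers each were at most 12.5 TPM for adipocytes, nearly all of it Pparg, 0.98 TPM for endothelium, 2.8 TPM for macrophages and leukocytes and 0.79 TPM for epithelium. Over all listed genes the sum was 403442 TPM for DMSO and 479938 TPM for GBC. In the Re table it ran from 642180 TPM in DMSO replicate 2 to 743269 TPM in Re replicate 3.

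In the Re table these genes covered a wide range of levels, and since TPM is a level per length they can be ordered by it. Spp1, which encodes the secreted adhesive phosphoprotein osteopontin, was the highest of the 10, at 663, 560.0 and 607 TPM in DMSO and 655, 639 and 602 TPM in Re, and ranked between 135 and 143 among all genes at 1 TPM or more in the DMSO libraries. Sparc, a collagen-binding glycoprotein, followed at 481, 447 and 458 TPM in DMSO and 459.7, 482 and 463 TPM in Re. Fn1, fibronectin, was at 371, 367 and 358 TPM in DMSO and 305, 267 and 464 TPM in Re, so that Re replicate 3 was above and the other Re libraries below every DMSO library. Thbs1, which encodes thrombospondin-1, a trimeric glycoprotein that can release TGF-beta from its latent form, came next at 294, 211 and 269.9 TPM in DMSO and 251, 232 and 303 TPM in Re.

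The middle of the order was held by Ccn2, Nid1 and Tnc. Ccn2, connective tissue growth factor, was at 197, 131 and 179 TPM in DMSO and 141, 143 and 200.2 TPM in Re. Nid1, nidogen-1, was at 112, 82.8 and 101 TPM in DMSO and 93.5, 92.8 and 126 TPM in Re. Tnc, tenascin-C, which loosens adhesion to fibronectin, was at 89.6, 59.0 and 79.1 TPM in DMSO and 71.4, 61.4 and 90.1 TPM in Re. In each of these the DMSO replicate 2 value was the lowest of the 6 and the Re replicate 3 value the highest, and the groups overlapped.

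Thbs2, thrombospondin-2, was at 36.1, 30.8 and 35.1 TPM in DMSO and 36.4, 35.2 and 41.2 TPM in Re, and Fbn1, fibrillin-1, at 31.5, 22.7 and 26.6 TPM in DMSO and 26.8, 23.9 and 38.9 TPM in Re. Postn, periostin, was low in every library, at 1, 0.96 and 0.62 TPM in DMSO and 1.4, 1.34 and 1.12 TPM in Re. Neighbours in the order of mean levels overlapped over the 6 libraries for Sparc and Fn1, Fn1 and Thbs1, Nid1 and Tnc, and Thbs2 and Fbn1. The other neighbours did not overlap, and within a library the order held in all 6 except for Sparc and Fn1, where Fn1 was above Sparc in Re replicate 3. The plot of levels shows both tables side by side.

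**Figure D1:**
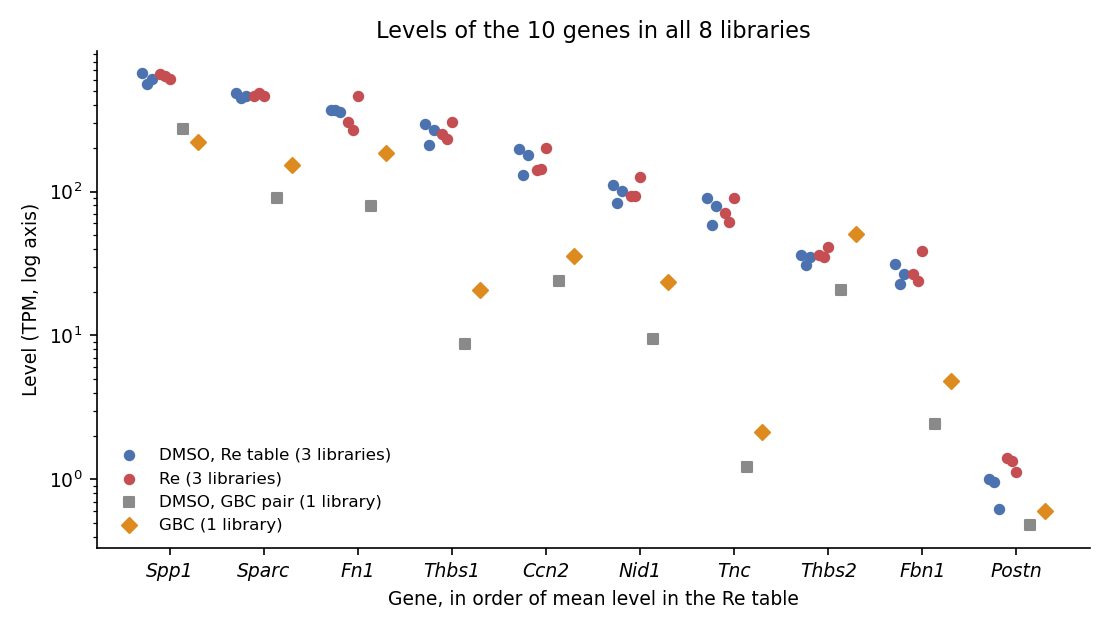
Level of each of the 10 genes in TPM (log axis) in all 8 libraries, 1 point per library, with circles for the 3 DMSO and 3 Re libraries of the Re table and, for the pair, squares for DMSO and diamonds for GBC. Tnc and Thbs1 lie far lower in the pair (1.21 and 8.71 TPM in DMSO) than in the Re table, while Thbs2 lies close in both.

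The DMSO cells of the 2 tables differed in these genes by very unequal amounts. This is a description, since the tables were treated as normalised separately and the pair has 1 DMSO library. Over 9996 genes at 1 TPM or more in both, DMSO of the Re table was 1.14 higher at the median on the log2(TPM + 1) scale. Tnc stood 5.12 higher, at a mean of 75.9 TPM against 1.21 TPM, a ratio of 62.7. Thbs1 was 4.74 higher, at 258 against 8.71 TPM, a ratio of 29.6. Nid1, Fbn1 and Ccn2 were 3.26, 3.03 and 2.77 higher, and Sparc and Fn1 2.35 and 2.19. Spp1 was 1.16 higher, which is about the median of all genes, and Thbs2 and Postn, at 0.70 and 0.33, lay below it.

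The order of the thrombospondins was opposite in the 2 tables. Thbs1 was above Thbs2 in all 6 libraries of the Re table and below it in both libraries of the pair, where Thbs1 had 8.71 TPM against 20.6 TPM for Thbs2 in DMSO, and 20.7 against 51.0 TPM in GBC. This order within a library does not depend on how the libraries were scaled. Related genes of the same families did not all differ alike. Nid2, the other nidogen, was at 11.6 to 15.1 TPM in the Re table and 0.3 and 0.92 TPM in the pair. Ccn1, the nearest relative of Ccn2, was at 155 to 208 TPM and at 21.6 and 31.4 TPM. Thbs3 was closer, at a mean of 10.1 TPM in the Re table and 6.43 and 7.57 TPM in the pair. Ccn5 went the other way, at 5.76 and 6.9 TPM in the pair and not among the genes that met the mean of 1 TPM in the Re table. Fbn2 was listed at 0 in all 8 libraries. The levels of the myoblast and of the fibroblast and mesenchymal markers, given above, differed between the tables as well, the latter in both directions, and their part in these gaps was not tested. In bulk RNA fewer cells of a type and less RNA per cell cannot be told apart.

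Sequences upstream of the transcription start are shown for the members whose levels set the tables or the treatments apart: Tnc, with the largest gap between tables, Thbs2, with a reversed order against Thbs1, Nid1, among the genes higher in GBC, and Spp1, the one member lower in GBC. They are the 250 bases before the most upstream start in RefSeq's table on GRCm38.p6, an older build than the GRCm39 named in the submitters' processing notes. That table held 7 of the 10 genes: Fbn1, Nid1, Postn, Sparc, Spp1, Thbs2 and Tnc. Each is written 5′ to 3′ on the gene's strand, and capitals mark matches on either strand to a TATA box (TATAAA), the core bound by TEAD factors (GGAATG), the core bound by RUNX factors (ACCACA) or an AP-1 site (TGANTCA).
Tnc, chr4:64047016-64047265, minus strand: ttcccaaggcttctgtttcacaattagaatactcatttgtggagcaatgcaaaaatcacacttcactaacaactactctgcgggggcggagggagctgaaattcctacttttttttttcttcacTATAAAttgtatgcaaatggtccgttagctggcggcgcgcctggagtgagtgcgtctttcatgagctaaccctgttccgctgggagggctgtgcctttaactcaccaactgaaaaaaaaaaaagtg
Thbs2, chr17:14694263-14694512, minus strand: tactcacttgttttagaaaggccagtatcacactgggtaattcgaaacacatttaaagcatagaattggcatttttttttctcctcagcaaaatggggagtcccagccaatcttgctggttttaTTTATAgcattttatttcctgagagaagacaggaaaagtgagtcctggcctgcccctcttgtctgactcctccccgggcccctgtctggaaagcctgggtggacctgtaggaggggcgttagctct
Nid1, chr13:13437352-13437601, plus strand: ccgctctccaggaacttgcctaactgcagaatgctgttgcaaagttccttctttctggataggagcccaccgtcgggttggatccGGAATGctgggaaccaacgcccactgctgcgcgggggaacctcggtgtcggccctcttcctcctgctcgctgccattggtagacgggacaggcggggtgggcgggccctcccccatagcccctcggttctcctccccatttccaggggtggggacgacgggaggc
Spp1, chr5:104434861-104435110, plus strand: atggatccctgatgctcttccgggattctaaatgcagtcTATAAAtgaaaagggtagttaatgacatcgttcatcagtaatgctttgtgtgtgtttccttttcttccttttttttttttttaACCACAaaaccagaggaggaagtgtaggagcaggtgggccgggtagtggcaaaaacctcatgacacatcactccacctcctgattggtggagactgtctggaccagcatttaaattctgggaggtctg
Postn held TATAAA 26 to 21 bases before its second start, and Fbn1 and Sparc held none of the motifs. The TATAAA match of Tnc lay 126 to 121 bases before the start, and that of Thbs2, on the opposite strand, 126 to 121 bases before it. Nid1 held GGAATG at 165 to 160 bases before its start and was the only one of the 7 genes with that core in these windows. Spp1 held TATAAA at 211 to 206 and ACCACA at 128 to 123 bases before its start. Over all 32851 promoters of the table, 12.4% held TATAAA, 12.6% GGAATG, 14% ACCACA and 6.75% TGANTCA, which none of the 7 genes had. The motifs do not overlap one another here, and a match describes letters and not binding.

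No member passed the test between Re and DMSO, and the intervals of the more variable ones were wide. With limma, 0 of the 10 had an adjusted p under 0.05, nor did any of the 11967 genes tested (percent called 0), where 745 had an unadjusted p under 0.05, or 6.23%, none of them a member. Differences are Re minus DMSO on the log2(TPM + 1) scale, which understates changes of low genes such as Postn. Of the 10 members 7 were higher in Re, against 77.5% of all genes tested, and the median difference of the members was 0.04, against 0.11 over all genes.

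Among the structural glycoproteins, Fn1 went from a mean of 365 ± 6.48 TPM in DMSO to 345 ± 104 TPM in Re (SD, n = 3), and the difference was -0.12 (95% interval -0.55 to 0.30). The spread of the Re libraries was far larger than that of the DMSO libraries for this gene. Nid1 differed by 0.08 (interval -0.28 to 0.43) and Fbn1 by 0.13 (-0.31 to 0.57). For these 3 the adjusted p from limma was 0.82 to 0.862.

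Of the matricellular genes, Sparc and Spp1 had the narrowest intervals: Sparc went from 462 ± 17.7 to 468 ± 12.2 TPM (SD, n = 3), and differed by 0.02 (interval -0.16 to 0.20), and Spp1 from 609.95 ± 51.5 to 632 ± 27.2 TPM (SD, n = 3), differing by 0.05 (interval -0.16 to 0.27). Thbs1, Tnc and Ccn2 differed by 0.03, -0.03 and -0.07, and each of their intervals reached 0.31 or more below 0 and 0.36 or more above it. Thbs2 differed by 0.14 (interval -0.10 to 0.38). Postn had the largest difference, 0.30 (interval -0.14 to 0.75), from 0.86 ± 0.209 to 1.29 ± 0.147 TPM, with an adjusted p of 0.687 in limma. Its 3 Re values lay above its 3 DMSO values, the only member whose groups did not overlap, and 13.7% of all genes tested had all Re values above all DMSO values. No member had all Re values below, as 1.27% of genes did.

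Direction depended on the scaling. After median-of-ratios scaling, which brings the median of all genes from 0.11 to 0.00, 3 of the 10 members were higher in Re, namely Postn at 0.24, Thbs2 at 0.03 and Fbn1 at 0.02, against 50.3% of all genes. Fn1, Ccn2 and Tnc were then at -0.24, -0.18 and -0.14, and Sparc, Spp1, Thbs1 and Nid1 changed sign, to -0.09, -0.06, -0.09 and -0.04. No member was called by limma (adjusted p 0.962 to 0.999), nor was any gene, with 4.71% of genes at an unadjusted p under 0.05. The groups of Postn then overlapped, where 5.32% of genes had all Re values above all DMSO values. Those of Sparc no longer did: its scaled Re values lay below its scaled DMSO values, as for 4.89% of all genes.

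**Figure D2:**
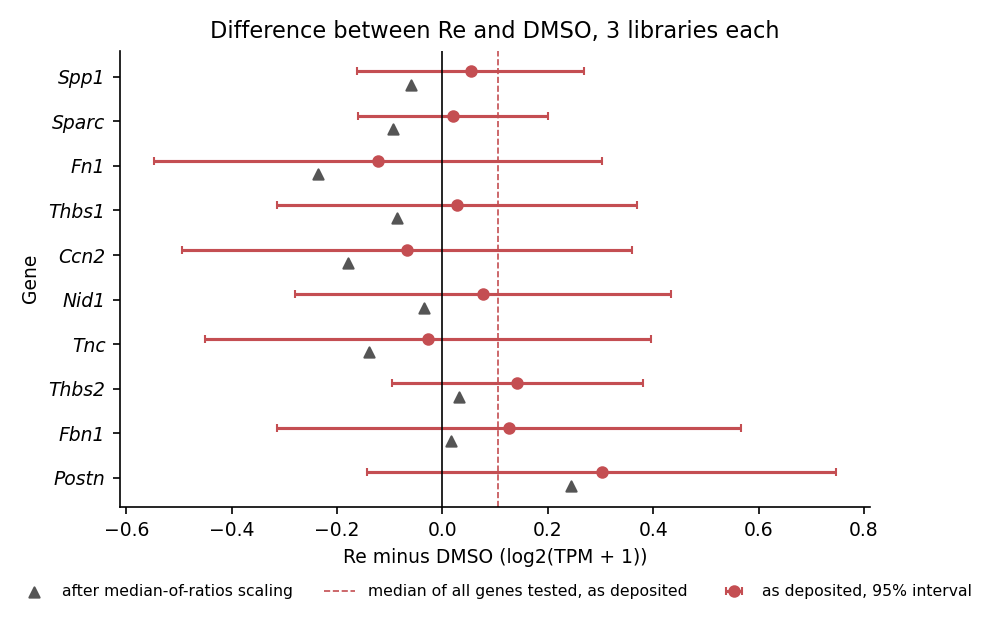
Re minus DMSO for each of the 10 genes on the log2(TPM + 1) scale, with circles and bars for the difference and its 95% interval from limma as deposited (3 libraries each), triangles for the difference after median-of-ratios scaling, and a dashed line at the median of all genes, 0.11. Every interval includes 0, and 7 of the triangles lie below 0.

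Several members shared their lowest and their highest library. DMSO replicate 2 was the lowest of the 6 libraries for 8 of the 10 members, where 51% of all genes tested had their lowest value there, and Re replicate 3 was the highest for 7 of the 10, where 36.7% of all genes did. Within the Re group, replicate 3 exceeded the mean of the other 2 libraries by 0.70 in Fn1, 0.60 in Fbn1, 0.50 in Ccn2, 0.44 in both Tnc and Nid1, 0.33 in Thbs1 and 0.20 in Thbs2 on the log2(TPM + 1) scale, and by 0.07 at the median of all genes. Sparc, Spp1 and Postn did not follow, at -0.02, -0.10 and -0.16. Within DMSO, replicate 2 stood below the mean of the other 2 libraries by 0.51 in Ccn2 and Tnc and 0.42 in Thbs1, and by 0.15 at the median of all genes, while Fn1 was 0.01 and Postn 0.12 above.

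Transcript length moved with part of this pattern. The excess of Re replicate 3 was 0.00 at the median of 1569 genes whose longest coding transcript is under 1.5 kb, 0.04 for 1.5 to 3 kb, 0.09 for 3 to 5 kb and 0.17 over 5 kb, and the 6 members over 5 kb (Fn1, Tnc, Thbs1, Thbs2, Nid1 and Fbn1, at 5848 to 11971 bases) lay above the median of their class. Ccn2, at 2490 bases, was 0.50 where its class was 0.04. In DMSO replicate 2 the deficit was 0.19 under 1.5 kb and 0.14 over 5 kb. Longer genes thus stood relatively higher there, as in Re replicate 3, but by less. The part of transcript length or RNA quality in the members' values was not tested.

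**Figure D3:**
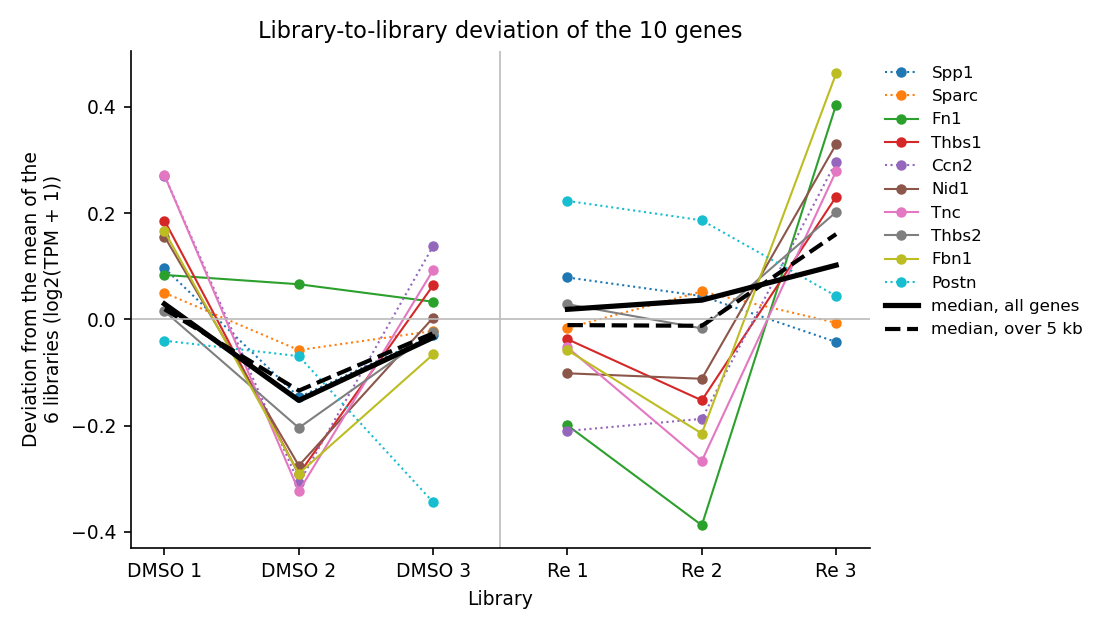
Deviation of each of the 10 genes from its own mean over the 6 libraries of the Re table (log2(TPM + 1)), by library, with solid lines for the 6 genes over 5 kb, dotted lines for the others, and black lines for the medians of all genes and of genes over 5 kb; lines join libraries of 1 group only to let a gene be followed. Most members are lowest in DMSO replicate 2 and highest in Re replicate 3.

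Single libraries moved several of the differences. Without Re replicate 3, the difference of Fn1 was -0.35 (interval -0.59 to -0.12, adjusted p 0.821 in limma), that of Ccn2 -0.23 and that of Tnc -0.17, while Fbn1, Nid1 and Thbs1 went to -0.07, -0.07 and -0.08. Without DMSO replicate 2, Ccn2 and Tnc were at -0.24 and -0.20, Thbs1 at -0.11 and Fbn1 at 0.01. Without Re replicate 2, Fn1 was at 0.04.

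The most variable member over the 6 libraries was Fbn1, with an SD of 0.28 on the log2(TPM + 1) scale, followed by Fn1 at 0.27, Ccn2 at 0.27 and Tnc at 0.26. Spp1 and Sparc were the least variable at 0.09 and 0.04. The genes whose centred values lay nearest to those of Fbn1, among the 9269 that averaged 5 TPM or more, were Plec, Serp2, Bmpr2, Fat1 and Syne1, with root mean square differences of 0.02, 0.03, 0.04, 0.04 and 0.05 over the 6 libraries. Plec, Bmpr2, Fat1 and Syne1 have longest coding transcripts of 12899 to 27908 bases and Serp2 one of 748 bases. Among the members, the nearest pairs were Thbs1 with Nid1 and Sparc with Spp1, at 0.06 each.

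The make-up of the group gives a view that does not depend on the scaling of a library. In DMSO of the Re table, Spp1 held 29.0% ± 0.3 of the summed TPM of the 10 genes, Sparc 22.1% ± 1.16, Fn1 17.5% ± 1.51 and Thbs1 12.2% ± 1.05 (SD, n = 3). In Re these shares were 30.1% ± 3.67, 22.3% ± 2.26, 16.1% ± 3.35 and 12.4% ± 0.64 (SD, n = 3), differing from DMSO by less than the spread of the Re libraries. The same held for Ccn2, Nid1, Tnc and Fbn1. Thbs2 was an exception: its share was 1.58%, 1.61% and 1.66% under DMSO and 1.78%, 1.78% and 1.77% under Re, so the groups did not overlap. Its TPM values did overlap, with 36.1 TPM in DMSO replicate 1 and 35.2 TPM in Re replicate 2. The share of Postn, 0.041% ± 0.011 in DMSO and 0.061% ± 0.012 in Re (SD, n = 3), also differed by more than either spread, but its groups overlapped. These shares were not tested, and how often such shares separate the groups over all genes was not computed. Re replicate 3 stood apart with the lowest Spp1 share of the 6, 25.8%, and the highest Fn1 share, 19.9%.

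**Figure D4:**
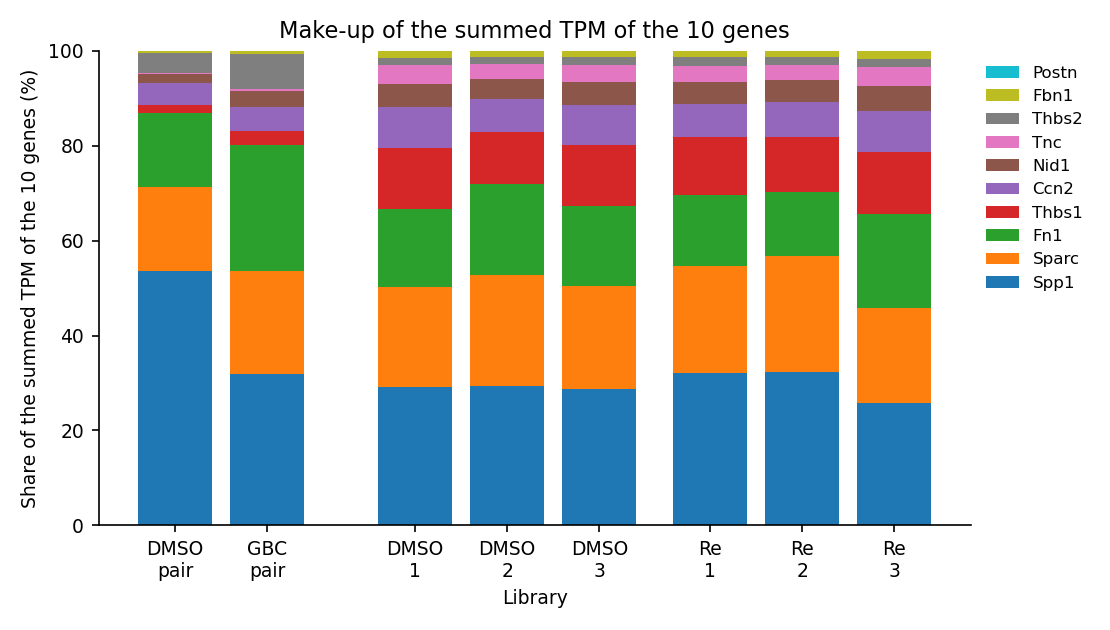
Share of the summed TPM of the 10 genes held by each gene (stacked bars, percent) in each of the 8 libraries. Spp1 takes 25.8% to 32.3% in the Re table, and in the pair 53.5% under DMSO and 31.8% under GBC.

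In the GBC library 9 of the 10 members stood above DMSO as deposited and 1, Spp1, stood below. Of the 7 members with a mean of 5 TPM or more, 6 were higher, against 88.9% of all such genes. Each arm of this pair is 1 library, so nothing here was tested and no replicate checks it. Fn1 went from 79.4 to 185 TPM, 2.33 times as high, which is 1.21 on the log2(TPM + 1) scale. The thrombospondins and nidogen-1 differed by similar amounts: Thbs2 went from 20.6 to 51.0 TPM (1.27), Nid1 from 9.41 to 23.5 TPM (1.23) and Thbs1 from 8.71 to 20.7 TPM (1.16).

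Sparc went from 89.8 to 152 TPM (0.75) and Ccn2 from 23.97 to 35.9 TPM (0.56). Fbn1, at 2.42 and 4.8 TPM, Tnc, at 1.21 and 2.12 TPM, and Postn, at 0.48 and 0.6 TPM, were low in both libraries and differed by 0.76, 0.50 and 0.11. Spp1 went the other way, from 272 to 222 TPM (-0.29). The summed level of the fibroblast and mesenchymal markers, given above, was also higher in GBC, as was the sum over all listed genes, and their part in these differences was not tested. As a share of the 10 genes Spp1 went from 53.5% to 31.8%, Fn1 from 15.6% to 26.6%, Sparc from 17.7% to 21.8% and Thbs2 from 4.05% to 7.31%.

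The background of this pair was itself one-sided: of the 6639 genes with a mean of 5 TPM or more, 88.9% were higher in GBC, and the median difference was 0.31. A rule of size asked for that mean and for a difference of 1 or more either way. It was passed by 4 of the 7 members that met the mean (Fn1, Thbs1, Thbs2 and Nid1), where 4.97% of all such genes were higher by that much and 0.241% lower. These 4 exceeded 97.2% to 98.0% of all genes, Sparc 88.0% and Ccn2 77.4%, and Spp1 exceeded 1.42%. After median-of-ratios scaling none of the members passed, at 0.91 for Thbs2, 0.88 for Nid1, 0.84 for Fn1 and 0.81 for Thbs1, where 1.58% of genes were higher by 1, and Postn was at -0.02. Without mitochondrially encoded genes, rescaled, the 4 still passed, at 1.01 to 1.09, where 3.19% of genes were higher by 1 or more. With both libraries rescaled to the same sum of listed TPM, Thbs2 alone of the members passed, at 1.03, where 2.36% of genes were higher by 1 or more. These 4 members exceeded at least 97.0% of genes after median-of-ratios scaling and with equal sums. Without mitochondrially encoded genes they exceeded at least 96.98%.

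Length moved with the difference here too. The median difference was 0.12 over 1117 genes under 1.5 kb, 0.24 for 1.5 to 3 kb, 0.37 for 3 to 5 kb and 0.53 over 5 kb, and the 4 members past the rule all lie in the longest class. In that class 7.70% of genes were higher by 1 or more, against 4.73% of all genes with a length. Less the median of its class, an alternative added after the data were seen, Thbs2 was 0.74 higher, Nid1 0.70, Fn1 0.68 and Thbs1 0.63. No member passed the rule, where 1.41% of genes were higher by 1 or more. These 4 then exceeded 95.1% to 96.4% of genes. On the same footing Sparc was 0.51 and Ccn2 0.32 higher, Tnc was at -0.03, Postn at -0.26 and Spp1, at 1507 bases, at -0.53. The part of length in these differences beyond that was not tested.

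**Figure D5:**
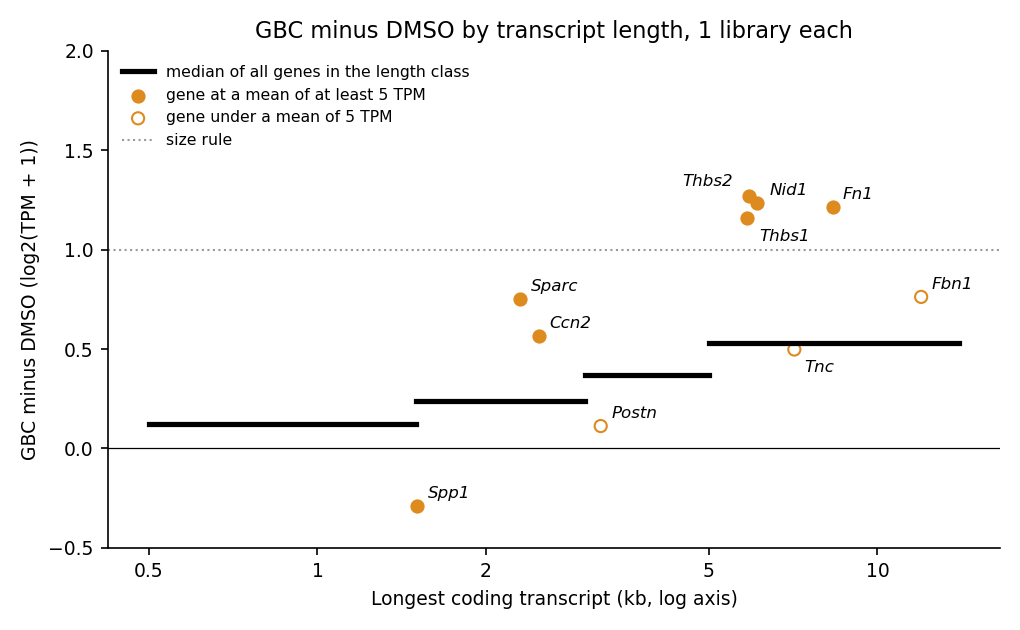
GBC minus DMSO (log2(TPM + 1), 1 library each) against the longest coding transcript (kb, log axis) for the 10 genes, with filled circles at a mean of at least 5 TPM and open circles below it, black bars at the median of all genes in each length class, and a dotted line at the size rule of 1. The bars step up from 0.12 to 0.53, and Fn1, Thbs1, Thbs2 and Nid1 lie above the bar of their class while Spp1 lies below 0.

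The other matrix and pathway genes were read from lists chosen by function. In the Re table no member of any of the 7 lists was called by limma. The counts of higher genes below stand beside 77.5% of all genes tested higher in Re, with a median of 0.11. Of the other matricellular genes 7 of 20 were tested, 5 higher and 2 lower with a median of 0.02, and Ccn1, Mfge8, Smoc2 and Ccn4, the most abundant, differed by 0.01, 0.12, -0.03 and 0.13. Of the other glycoprotein and elastic fibre genes 13 of 24 were tested, with 10 higher and a median of 0.11; Fbln2 and Efemp2, fibulin family genes, differed by 0.15 and 0.18, and Ecm1 and Ltbp1 by 0.07 and 0.11. Of the proteoglycan genes 5 of 12 were tested, with 2 higher and a median of -0.05; Bgn (biglycan), Hspg2 (perlecan) and Vcan (versican) differed by -0.05, -0.06 and 0.25, and Agrn (agrin) by 0.20.

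Receptors of these proteins were abundant in the Re table: Itgb1, the beta-1 integrin, had a mean of 297 TPM over the 6 libraries and Cd44, a receptor of osteopontin, 111 TPM. Of the 14 receptor genes 10 were tested, 9 higher with a median of 0.08, and Itgb1, Cd44, Itga5 and Lrp1 differed by 0.07, 0.01, -0.06 and 0.17. Of the TGF-beta list 13 of 14 were tested, with 9 higher and a median of 0.06, and Ltbp1, Smad2 and Smad4 differed by 0.11, 0.01 and 0.14. All 13 genes of the YAP and TAZ list were tested, with 8 higher and a median of 0.07; Ankrd1, Ccn1, Axl and Amotl2 differed by 0.07, 0.01, -0.08 and 0.09. Of the processing and crosslinking genes 13 of 16 were tested, with 11 higher and a median of 0.06, and Lox, Pcolce, Fkbp10 and Furin differed by 0.03, 0.06, 0.16 and 0.13. Ltbp1 and Ccn1 each stand in 2 lists. After median-of-ratios scaling 3 of 7, 7 of 13, 2 of 5, 4 of 10, 3 of 13, 2 of 13 and 6 of 13 genes of the lists, in the order given, were higher in Re. Of all genes tested 50.3% were.

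The most abundant myoblast markers differed between Re and DMSO as follows: Des, the muscle intermediate filament, by -0.05, Itga7 by 0.10, Myf5 by 0.05 and Chrna1 by 0.00. None of the 6 tested was called by limma. As deposited 3 of the 6 were higher in Re, against 77.5% of all genes tested. After median-of-ratios scaling all 6 were below 0, with a median of -0.14, where 50.3% of all genes were above 0. Of the 7 fibroblast and mesenchymal markers tested 5 were higher in Re, with a median of 0.11 and none called; Col3a1, Twist2, Prrx1 and Col1a1, the most abundant, differed by 0.22, 0.19, -0.08 and -0.07.

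In the GBC library the proteoglycan and glycoprotein lists held further genes past the size rule. As deposited, 88.9% of all genes at a mean of 5 TPM or more were higher, with a median of 0.31. By 1 or more, 4.97% were higher. Of 10 other glycoprotein genes at a mean of 5 TPM, 9 were higher with a median of 0.75, and Ecm1, extracellular matrix protein 1, at 5.14 and 16.8 TPM (1.54), and Emilin2, at 7.83 and 20.7 TPM (1.30), passed. Efemp2, Fbln2 and Efemp1 were 0.47, 0.78 and 0.65 higher, and Fbln5 was at -0.07. All 3 measured proteoglycan genes were higher, Hspg2 at 3.47 and 8.78 TPM (1.13) and Bgn at 68.7 and 142 TPM (1.03) past the rule and Vcan at 0.65. Agrn, at a mean of 4.23 TPM, was 0.32 higher. Of the fibroblast and mesenchymal markers 6 of 7 were higher, and Col1a1, a chain of type I collagen, passed at 10.9 and 46.6 TPM (1.996), also after median-of-ratios scaling. Ly6a, Prrx1 and Col3a1 were 0.18, 0.74 and 0.96 higher. After median-of-ratios scaling 4 of these 7 markers were higher, against 45.2% of all genes. The 5 other matricellular genes were higher as deposited, with a median of 0.37, and none passed: Mfge8, Ccn1, Thbs3 and Ccn4 differed by 0.47, 0.52, 0.21 and 0.37.

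The next counts stand beside the same background, 88.9% of genes higher in GBC with a median of 0.31. All 9 measured receptor genes were higher in GBC, with a median of 0.53 and none past the rule. Itgb1, Cd44, Sdc4 and Sdc1 were 0.78, 0.53, 0.26 and 0.13 higher. All 10 measured genes of the TGF-beta list were higher with a median of 0.47, with Ltbp1, Smad4 and Smad3 at 0.97, 0.28 and 0.54. Of the YAP and TAZ list all 10 measured genes were higher with a median of 0.46, and Yap1 passed, at 3.09 and 9.14 TPM (1.31), while Axl, Amotl2, Ccn1 and Tead2 were 0.75, 0.47, 0.52 and 0.36 higher. The 7 processing and crosslinking genes were all higher with a median of 0.66, with Pcolce, Lox, Fkbp10 and Loxl1 at 0.50, 0.94, 0.75 and 0.73. After median-of-ratios scaling Ecm1 alone of the genes in the 7 lists passed, and 3 of 5 other matricellular, 8 of 10 glycoprotein, 3 of 3 proteoglycan, 6 of 9 receptor, 7 of 10 TGF-beta, 7 of 10 YAP and TAZ and 7 of 7 processing genes were higher, against 45.2% of all genes.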

How the data were processed

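RNA was sequenced from 8 libraries labelled C2C12, with a column kit for total RNA and an Illumina TruSeq RNA kit, per the labels' protocols. The authors deposited log2(TPM + 1) per Ensembl gene, 1 column per library; the submitters' processing notes name STAR, RSEM, GRCh38 and GRCm39, with settings not given in the sources used here. Values were turned back to TPM and rounded to the steps of 0.01 they held within 2.04e-04. TPM keeps no read depth, so no counting error or floor can be given.

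The comparison of Re with DMSO used limma 3.58.1 in R 4.3.3 (lmFit and eBayes with trend, two-sided, Benjamini-Hochberg over all genes tested, threshold 0.05) and log2(TPM + 1), so the pseudocount was 1. Genes needed an average of 1 TPM or more over the 6 libraries, which 11967 met. Simulated libraries had the genes' own means and spread, with 200 of 11967 genes raised in each of 5 simulations. On these, this step recovered 73% of the 2-fold and 95.2% of the 4-fold changes, set on the log2(TPM + 1) scale. Errors were drawn independently for each gene, without shifts shared by a library. The rates may therefore not hold for the real libraries. The pair was described by differences and a size rule without a test. Transcript lengths came from GENCODE M21 on GRCm38 (10865 of the 11967 genes, all 10 members; no coordinates were used), and promoter sequences from RefSeq on GRCm38.p6. Python 3.11.15, numpy 2.4.6, pandas 2.3.3 and matplotlib 3.10.9 were used.

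The members and the lists were chosen with earlier results of these data known. Every member is named; from each pathway list the 4 genes with the highest mean TPM in a table, those past the size rule in GBC, and the 5 genes nearest to the most variable member. The values of 1 listed gene are not reported here. Genes set beside a member for kinship and the cell type markers named (Nid2, Fbn2, Thy1, Lum and others) were chosen after their values were seen. Alternatives were other pseudocounts (0.1 and 0.5), filters, scalings (median of ratios, quantile, equal sums, without mitochondrially encoded genes), variance settings, a replicate block, leaving out each library and subtracting length class medians.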

Additional observations from a re-analysis of the deposited data

How the results depend on the processing

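No member was called between Re and DMSO by limma under any alternative run. The number of all genes called was 0 under every alternative that kept all 6 libraries, and 0 to 7 when 1 library was left out at a time: 4, 6 and 0 without DMSO replicates 1, 2 and 3, and 3, 1 and 7 without Re replicates 1, 2 and 3. Differences of members changed sign under 3 scalings: after median-of-ratios scaling, quantile normalisation and removal of mitochondrially encoded genes with rescaling, in that order, Sparc was at -0.0940, -0.0607 and -0.0720, Spp1 at -0.0605, -0.0547 and -0.0385, Thbs1 at -0.0862, -0.0423 and -0.0642, and Nid1 at -0.0353, -0.00967 and -0.0135. Each of these alternatives also moved the median of all genes, from 0.11 to 0.00, 0.01 and 0.02. With 1 library left out at a time, the differences ran from -0.354 to 0.0413 for Fn1, from -0.00418 to 0.0497 for Sparc, from -0.00654 to 0.115 for Spp1, from -0.195 to 0.102 for Tnc, from -0.111 to 0.127 for Thbs1, from -0.0679 to 0.175 for Nid1, from -0.0731 to 0.266 for Fbn1 and from -0.238 to 0.0519 for Ccn2. Those of Postn and Thbs2 stayed above 0 in these runs. The labels do not say whether the replicate numbers pair the libraries, and they were not taken to. Deviations of same-numbered libraries correlated at 0.163, 0.077 and 0.017, and those of differently numbered libraries at -0.172 to 0.094. With 3 libraries per group these values cannot decide it. With the number as a replicate block 0 genes and 0 members were called, and 810 genes had an unadjusted p under 0.05.

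In the GBC pair, 346 genes passed the size rule as deposited, 132 after median-of-ratios scaling, 179 with equal sums, 522 at a mean of at least 1 TPM and 92 less the length class median; of the members 4 passed as deposited, 0 after median-of-ratios scaling, 1 with equal sums and 0 less the length class median. All 4 also passed at a mean of at least 1 TPM, with pseudocounts of 0.1 and 0.5 (454 and 404 genes) and without mitochondrially encoded genes (231 genes), where they were at 1.01 to 1.09. Postn changed sign to -0.0181 after median-of-ratios scaling and -0.26 less the class median, and Tnc to -0.0347 less the class median. After median-of-ratios scaling 1 other glycoprotein gene, 0 proteoglycan genes and 0 genes of the YAP and TAZ list passed. Depth is unknown, so how far it limits low genes such as Postn cannot be given.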
